A study of Mus musculus with 20 samples.

Results

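RNA of mouse U14 tumours was compared between all tumours that had received the CXCR4 antagonist Plerixafor and all that had not. All 20 libraries of the series enter, 10 on each side. The antagonist-treated side holds 5 Plerixafor and 5 Combination libraries, and the antagonist-free side holds 5 Solution and 5 anti-PD-1 libraries. Solution is the control label, anti-PD-1 is an antibody to the T cell checkpoint receptor PD-1, and Combination is taken here as Plerixafor with the antibody, which the labels do not spell out. The antibody was thus a second factor, present in Combination and anti-PD-1 tumours. The labels name the U14 line, the tissue as tumour and the cell type as cervical cancer for every library. They give no host strain, age, dose or treatment time, and they do not say whether the libraries of a group came from separate animals, so p-values cover only the spread among the sequenced libraries, which may be technical. A gene was counted as not overlapping when its lowest value on one side lay above its highest value on the other side. The series title names TOX, exhausted CD8+ T cells and the JAK2/STAT3 pathway, and the pooled comparison asks which transcripts separated the tumours by the antagonist.

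CXCR4 is a chemokine receptor on many leukocytes and some tumour cells, and its ligand CXCL12 is made mainly by stromal cells. Plerixafor is a small molecule that occupies CXCR4 and keeps CXCL12 from binding. PD-1 is a receptor on activated T cells that dampens their signalling when it binds PD-L1, and TOX is a nuclear factor of long-stimulated, exhausted T cells. A tumour sample holds malignant cells together with immune cells, fibroblasts and vessels, so its RNA is the sum over all of them. In such bulk samples, fewer cells of a type and less RNA per cell cannot be told apart.

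The deposited values are FPKM, fragments scaled to gene length and to the fragments of the library. Levels can be set beside each other between genes, while between libraries they also depend on what else a library holds. FPKM summed to between 384461.6 in anti-PD-1 2 and 439254.6 in Combination 3. Whole reads could be recovered from the FPKM steps and came to between 16565807 and 19833872 per library. The first principal component held 68.4% of the variance and placed the antagonist-treated libraries between -94.33 and -22.75 and the antagonist-free ones between 43.51 and 78.6. Plerixafor 5 lay nearest to the antagonist-free side and anti-PD-1 4 nearest to the antagonist-treated side. Skeletal muscle genes took 23.3%, 7%, 2.93% and 8.27% of all FPKM in anti-PD-1 1, 2, 3 and 5, 0.0467% in anti-PD-1 4 and at most 0.372% in any other library. The labels name no batch.

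Separation of the arms by the antagonist was widespread. Of 12687 genes with at least 1 FPKM in at least 5 libraries, 4169 lay higher without overlap in antagonist-treated tumours (32.9% of the genes tested) and 1261 lay lower without overlap (9.94%), 5430 in all (42.8%). The higher genes thus made up 76.8% of the genes without overlap. That split depended on scaling: after median-of-ratios scaling, which divides each library by its median ratio to a common profile, 3027 genes were higher and 2286 lower, so that 57% were higher, and after quantile normalisation 3265 were higher and 1922 lower, or 62.9%. Over all tested genes the log2 fold change had a median of 0.12 as deposited and of -0.0012 after median-of-ratios scaling. Among genes whose arms lay more than 1 log2 unit apart at their nearest libraries, 798 were higher (6.29%) and 24 lower (0.189%).

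The model fitted to all genes gave a more even split. limma with a moderated test on log2(FPKM + 1), with the antibody and its interaction in the model, called 5854 genes higher (46.1%) and 4618 lower (36.4%), 10472 in all (82.5%), in antagonist-treated tumours at a Benjamini-Hochberg adjusted p under 0.05. Of the higher calls 71.22% showed no overlap, and of the lower calls 27.31%. The lower calls had the larger median fold change, -1.02 on the log2 scale with a median standard error of 0.16, while the higher calls had a median of 0.88 with a standard error of 0.091. Single libraries set the edges of many calls in both directions. Among the lower calls Plerixafor 5 was the highest antagonist-treated library for 74.86%, and anti-PD-1 1 was the lowest antagonist-free library for 59.4%. Among the higher calls Plerixafor 5 was the lowest antagonist-treated library for 57.31%, and anti-PD-1 4 was the highest antagonist-free library for 32.01%. Without anti-PD-1 1 the lower genes without overlap numbered 2538, without Plerixafor 5 they numbered 1787, and without both 3263, while the higher ones numbered 4391, 4345 and 4570. Leaving out both was chosen after seeing the data, and for a gene still tested leaving out a library can only add separation.

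**Figure D1:**
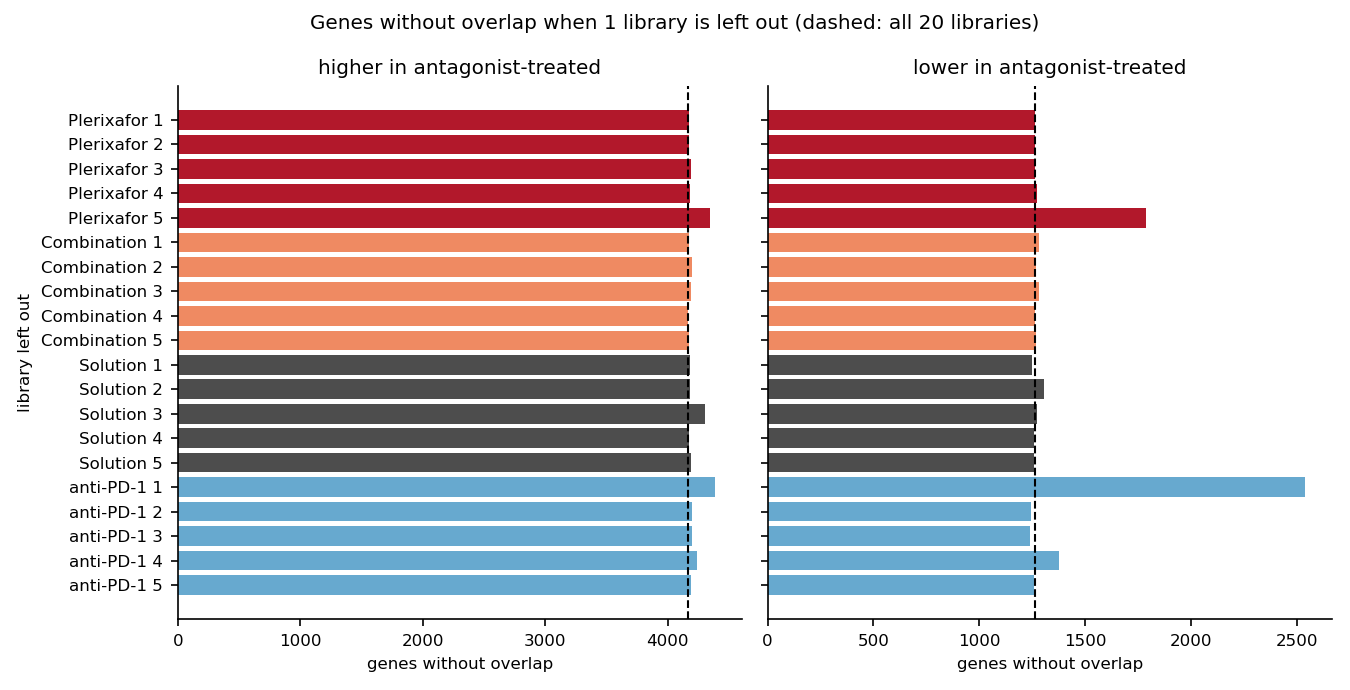
Number of genes without overlap between the arms when the library named on the vertical axis is left out, higher (left panel) and lower (right panel) in antagonist-treated tumours; the dashed line is the count over all 20 libraries. The count of higher genes stays between 4171 and 4391, while the count of lower genes reaches 2538 without anti-PD-1 1 and 1787 without Plerixafor 5.

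The 12 genes with the widest separation upward are given first. They were picked for their gap, so their fold changes describe them and test nothing. Sqle, the squalene epoxidase of cholesterol synthesis, had 123, 120, 109, 111 and 102 FPKM in Plerixafor tumours and 118, 117, 125, 148 and 112 in Combination tumours, against 1.76, 1.93, 5.37, 1.82 and 2.41 in Solution tumours and 1.03, 1.47, 2.12, 6.62 and 2.86 in anti-PD-1 tumours. Every antagonist-treated library stood at 102 FPKM or more and every antagonist-free library at 6.62 or less, with anti-PD-1 4 and Solution 3 the highest of those. The mean was 43.2 times as high, and the log2 fold change was 5.11 ± 0.19 (SE).

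Slc2a3, which encodes the glucose transporter GLUT3, had a lowest, median and highest value of 210, 276 and 351 FPKM in antagonist-treated tumours, against 2.46, 5.39 and 20.5 in antagonist-free tumours. Anti-PD-1 4 was the antagonist-free library nearest to the other arm. Bmp4, a secreted ligand of the BMP family, had 82.9, 98.8 and 154 FPKM with the antagonist, against 0.342, 1.51 and 9.75 without it, a log2 fold change of 5.35 ± 0.19.

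Rhox5, an X-linked homeobox gene known from testis and epididymis, had 529, 532, 452, 536 and 302 FPKM in Plerixafor tumours and 476, 531, 510, 605 and 514 in Combination tumours, against 1.43, 0.498, 0.426, 0.174 and 1.30 in Solution tumours and 1.46, 2.32, 2.73, 38.9 and 4.94 in anti-PD-1 tumours. The values of 302 in Plerixafor 5 and 38.9 in anti-PD-1 4 were the edges of the arms, and they were still far apart. Its log2 fold change of 7.28 ± 0.36 was the highest of any list member. The Rhox family holds near-identical copies, which may share reads. Sox2, a transcription factor gene of stem cells, followed the same order and had 28.1, 36.1 and 45.4 FPKM with the antagonist, against 0, 0.134 and 3.05 without it. Dlk2, a Notch-related membrane protein gene, Cox7b2, a testis form of a cytochrome c oxidase subunit, the cytochrome P450 gene Cyp2c55, Ifi202b of the interferon-inducible DNA sensor family, and Dcaf8l were separated in the same way. Their antagonist-treated minima ran between 16.7 FPKM for Dlk2 and 44.3 for Dcaf8l, and their antagonist-free maxima between 1.57 for Dlk2 and 5.04 for Dcaf8l. In all 5 the highest antagonist-free library was anti-PD-1 4.

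**Figure D2:**
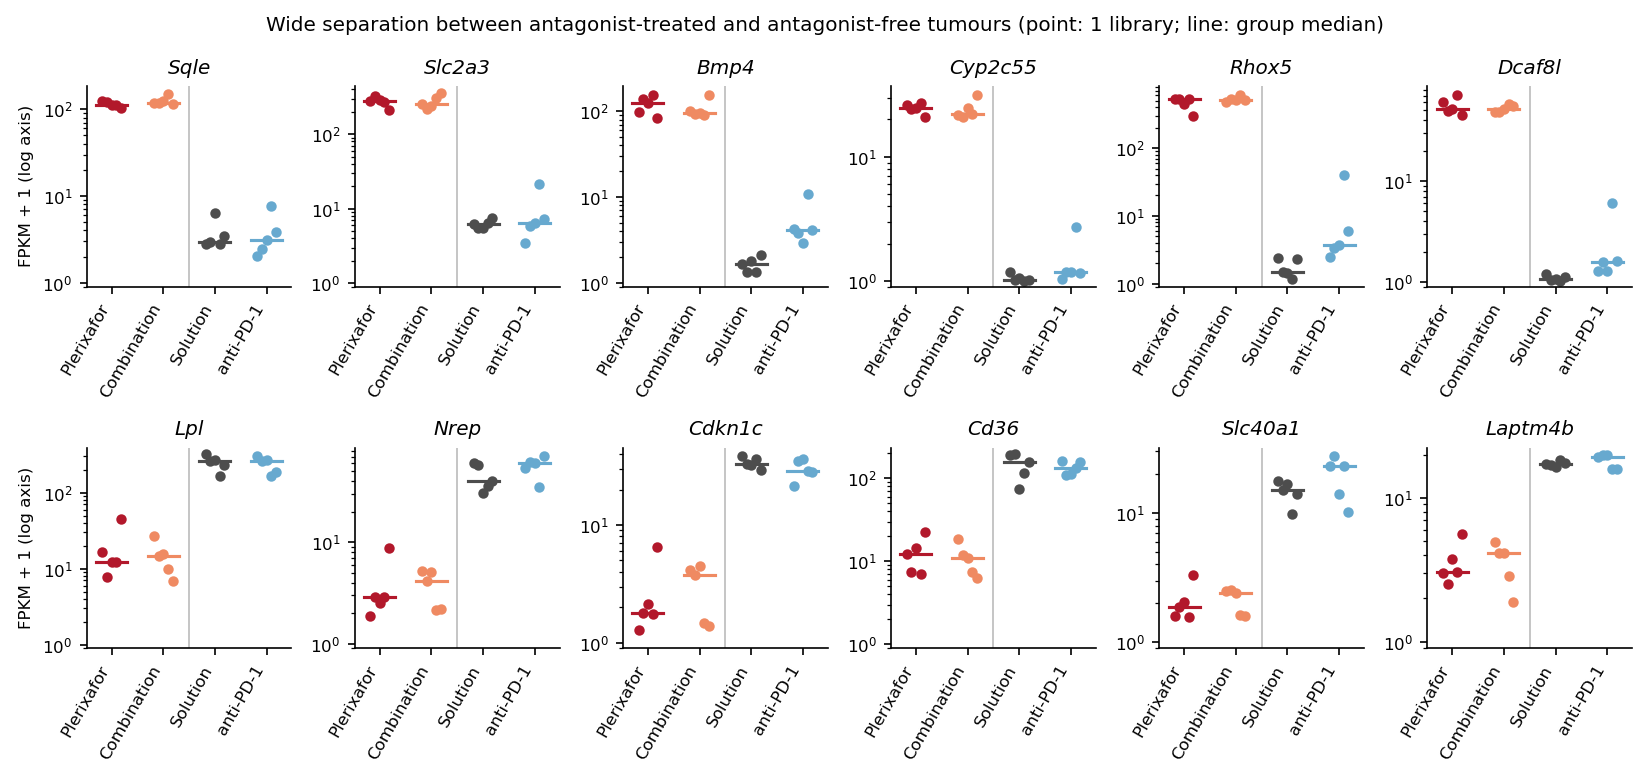
Levels of 6 of the 12 genes with the widest separation upward (upper row) and 6 of the 12 downward (lower row) in each of the 20 libraries, as FPKM + 1 on a log axis, with 1 point per library and a line at the group median. The antagonist-treated groups, Plerixafor and Combination, stand left of Solution and anti-PD-1; Sqle lies at 102 FPKM or more in every antagonist-treated library and at 6.62 or less elsewhere, and Lpl lies at or below 43.8 against at least 163.

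Genes of cell division were higher throughout the list. All 24 tested mitosis genes rose and all 24 were without overlap, beside 32.9% of all tested genes, with a median log2 fold change of 3.19 beside 0.12 over all genes. Their summed level was 649, 1156 and 1255 FPKM at the lowest, median and highest antagonist-treated library, against 21.8, 95.2 and 209 in antagonist-free tumours. Plerixafor 5 had the lowest sum of its arm and anti-PD-1 4 the highest of the other. The lists named here were put together with earlier results of these data known, so their direction is a description.

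Top2a, the topoisomerase that untangles chromosomes before they part, had 85.3, 134 and 161 FPKM in antagonist-treated tumours, against 1.86, 9.3 and 22.8 in antagonist-free tumours. Cdc20, which activates the anaphase-promoting complex, had 47.5, 85.6 and 95 FPKM with the antagonist, against 1.05, 4.36 and 12.8 without it. Tpx2, a spindle assembly factor, had 43.9, 76.6 and 85.2 FPKM in antagonist-treated tumours, against 1.41, 4.58 and 11.7 in antagonist-free tumours. No library of either arm entered the range of the other for any of these genes, and log2 fold changes were 3.73 ± 0.25, 3.87 ± 0.23 and 3.69 ± 0.20.

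Promoters of mitosis genes are known for CCAAT boxes and for a cell cycle homology region, and because these genes moved together, 3 of their promoters are shown. The windows run from 250 bases before to 50 bases after the annotated start and come from RefSeq on GRCm38.p6. A window of 300 bases was matched by gene identifier, or by symbol where that gave none, for 10127 of the 12687 tested genes. Capitals mark the CCAAT box on either strand and the letters of the cell cycle homology region, searched as TTTGAA on either strand. Top2a (chr11:99024140-99024439, minus strand) and Cdc20 (chr4:118437294-118437593, minus strand) are named by the rule for list members, and the cyclin gene Ccnb2 (chr9:70421505-70421804, minus strand) was chosen after its letters were seen.
Top2a: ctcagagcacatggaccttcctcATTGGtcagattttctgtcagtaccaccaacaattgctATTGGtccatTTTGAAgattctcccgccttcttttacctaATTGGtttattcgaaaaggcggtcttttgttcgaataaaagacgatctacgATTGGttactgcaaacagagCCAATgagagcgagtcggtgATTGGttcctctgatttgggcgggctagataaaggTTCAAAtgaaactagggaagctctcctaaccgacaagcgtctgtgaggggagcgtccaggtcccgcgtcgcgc
Cdc20: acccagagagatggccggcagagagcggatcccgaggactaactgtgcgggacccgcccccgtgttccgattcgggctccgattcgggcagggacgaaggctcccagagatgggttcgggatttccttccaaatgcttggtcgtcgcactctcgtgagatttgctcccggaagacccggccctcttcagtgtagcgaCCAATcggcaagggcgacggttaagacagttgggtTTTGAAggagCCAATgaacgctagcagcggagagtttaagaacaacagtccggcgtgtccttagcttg
Ccnb2: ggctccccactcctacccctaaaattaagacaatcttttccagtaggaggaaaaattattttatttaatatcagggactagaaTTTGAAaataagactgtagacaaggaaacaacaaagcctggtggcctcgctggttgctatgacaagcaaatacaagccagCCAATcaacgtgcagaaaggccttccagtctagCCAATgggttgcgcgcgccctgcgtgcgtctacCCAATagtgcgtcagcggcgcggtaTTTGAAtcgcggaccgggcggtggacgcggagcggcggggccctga
CCAAT stood on either strand in 17 of 21 mitosis promoters (81.0%), 42.3% of the promoters of genes higher without overlap, 36.5% of those lower without overlap and 39.1% of all 10127. For TTTGAA the same sets gave 15 of 21 (71.4%), 14.1%, 12% and 12.2%. A match describes these letters and is not a measured binding site.

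DNA replication genes followed the same order. All 28 tested members rose and 27 were without overlap, beside 46.1% and 32.9% of all tested genes, with a median log2 fold change of 2.32. Rrm2, a subunit of the enzyme that makes deoxynucleotides, had 102, 157 and 173 FPKM with the antagonist, against 1.69, 8.48 and 24.1 without it. Mcm10 and Cdc6, which act in the start of replication, had log2 fold changes of 3.67 ± 0.17 and 2.94 ± 0.13. Rfc2, of the clamp loader, was the 1 member with overlapping arms, at 0.56.

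The machinery that makes and folds proteins was higher as well, beside 46.1% of all tested genes that rose and 32.9% higher without overlap. All 20 ribosome biogenesis genes rose (19 without overlap, median 2.35), all 20 aminoacyl-tRNA synthetase genes rose (18 without overlap, median 1.97) and all 18 cytosolic chaperone genes rose (18 without overlap, median 2.04). Nop56, a core protein of the particles that modify ribosomal RNA, had 47, 67.8 and 78.6 FPKM with the antagonist, against 4.97, 6.7 and 11.8 without it. Cars, which loads cysteine onto its tRNA, had 36.1, 50.3 and 60.4 FPKM with the antagonist, against 7.94, 8.92 and 11.3 without it. The arms of both genes were separate, with anti-PD-1 4 the antagonist-free library nearest to the other side.

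Hsp90ab1, a form of the chaperone HSP90, had 1686, 2469 and 2716 FPKM in antagonist-treated tumours, against 412, 511 and 629 in antagonist-free tumours. All 18 tested genes of the nuclear pore and transport list rose without overlap (median 2.15), among them the scaffold gene Nup85 with a log2 fold change of 2.20 ± 0.09. Proteasome core genes moved less: 13 of 14 rose and 10 were without overlap, beside 46.1% and 32.9% of all tested genes, with a median of 0.95. After median-of-ratios scaling 5 proteasome genes were without overlap, and 14 chaperone, 16 synthetase and 18 ribosome biogenesis genes. Over all genes 3027 of 12687 were then higher without overlap. Psmb5, a catalytic proteasome subunit, had a log2 fold change of -0.05 and was not called.

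Sterol synthesis genes rose in 14 of 15 tested members, 11 of them without overlap, beside 46.1% and 32.9% of all tested genes. Their median log2 fold change was 1.49. Fdps, which makes farnesyl diphosphate, had 61.2, 86.1 and 109 FPKM with the antagonist, against 6.77, 8.97 and 13.1 without it. Srebf2, the transcription factor gene of the pathway, had a log2 fold change of 1.87.

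Of 19 tested genes of the glycolysis and hypoxia list 11 rose and 4 fell, with 3 higher and 2 lower without overlap. Over all tested genes 46.1% rose, 36.4% fell, 32.9% were higher and 9.94% lower without overlap, so the list's shares without overlap lay below or near those over all genes. Ndrg1, a hypoxia-responsive gene, had 146, 198 and 219 FPKM with the antagonist, against 23.1, 44.4 and 63.2 without it. Egln3, an oxygen-sensing hydroxylase gene that hypoxia also raises, was lower and had 0.785, 1.88 and 4.45 FPKM with the antagonist, against 9.28, 15.9 and 29.4 without it. Of 16 oxidative phosphorylation genes 5 rose, 2 fell and none was without overlap. The median of these genes was 0.58 for Plerixafor minus Solution and -0.47 for Combination minus anti-PD-1, so the strata had opposite signs. The pooled median was 0.06, and 0.52 without the anti-PD-1 libraries 1, 2 and 5. Anti-PD-1 1, the library with the highest muscle share, had the highest sum of the antagonist-free arm in both lists, at 8321 and 6944 FPKM, and the part of muscle in these results was not tested.

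Most germline genes were too low to be tested. Of 16 germline genes 4 passed the filter on low values, and of 14 placental genes 7. Dcaf8l, Tex11, Phlda2 and Prl2c5 passed only through the antagonist-treated arm, where they are high, so the filter fixed their direction. With no filter the median log2 fold change was -0.01 over the germline genes and 0.16 over the placental genes. Rhox5, Dcaf8l and Tex11 rose without overlap. Tex11, a meiosis gene, had 25.1, 48 and 51.6 FPKM with the antagonist, against 0.014, 0.133 and 3.06 without it. Dppa3, an oocyte and germ cell factor gene, fell (-0.93). Of 7 tested placental genes 5 rose and 2 fell, beside 46.1% and 36.4% of all tested genes. Phlda2, an imprinted growth restrictor of the placenta, had 14, 27.7 and 38.5 FPKM in antagonist-treated tumours, against 0, 0.179 and 1.91 in antagonist-free tumours. The placental hormone genes Prl2c2, Prl2c3 and Prl2c5 had log2 fold changes of 5.44, 4.94 and 4.99, but they are near-identical copies and may share reads. Peg10, an imprinted gene derived from a retrotransposon, fell without overlap at -0.97.

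Of 19 homeobox genes 6 passed the filter on low values. Pitx1, a homeobox gene of the hindlimb, had 42.7, 64.4 and 77.6 FPKM with the antagonist, against 0.0407, 0.226 and 6.08 without it, while the other 5 tested homeobox genes fell. Msx1 was the 1 of them without overlap and had 0.221, 0.444 and 1.43 FPKM with the antagonist, against 1.7, 4.18 and 6.76 without it. Pitx1 and Msx1 each passed only through the arm where they are high, so the filter fixed their direction. The list median was -1.46 over the tested members and -0.38 with no filter. Of 13 BMP signalling genes 7 rose and 6 fell, beside 46.1% and 36.4% of all tested genes. Besides Bmp4, the target genes Id1 and Id3 rose without overlap. Id1 had 119, 181 and 219 FPKM with the antagonist, against 6.23, 9.25 and 21.7 without it. Id2, also a target, fell by 2.34 on the log2 scale, and Smad1, a signal carrier of the pathway, by 1.68.

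**Figure D3:**
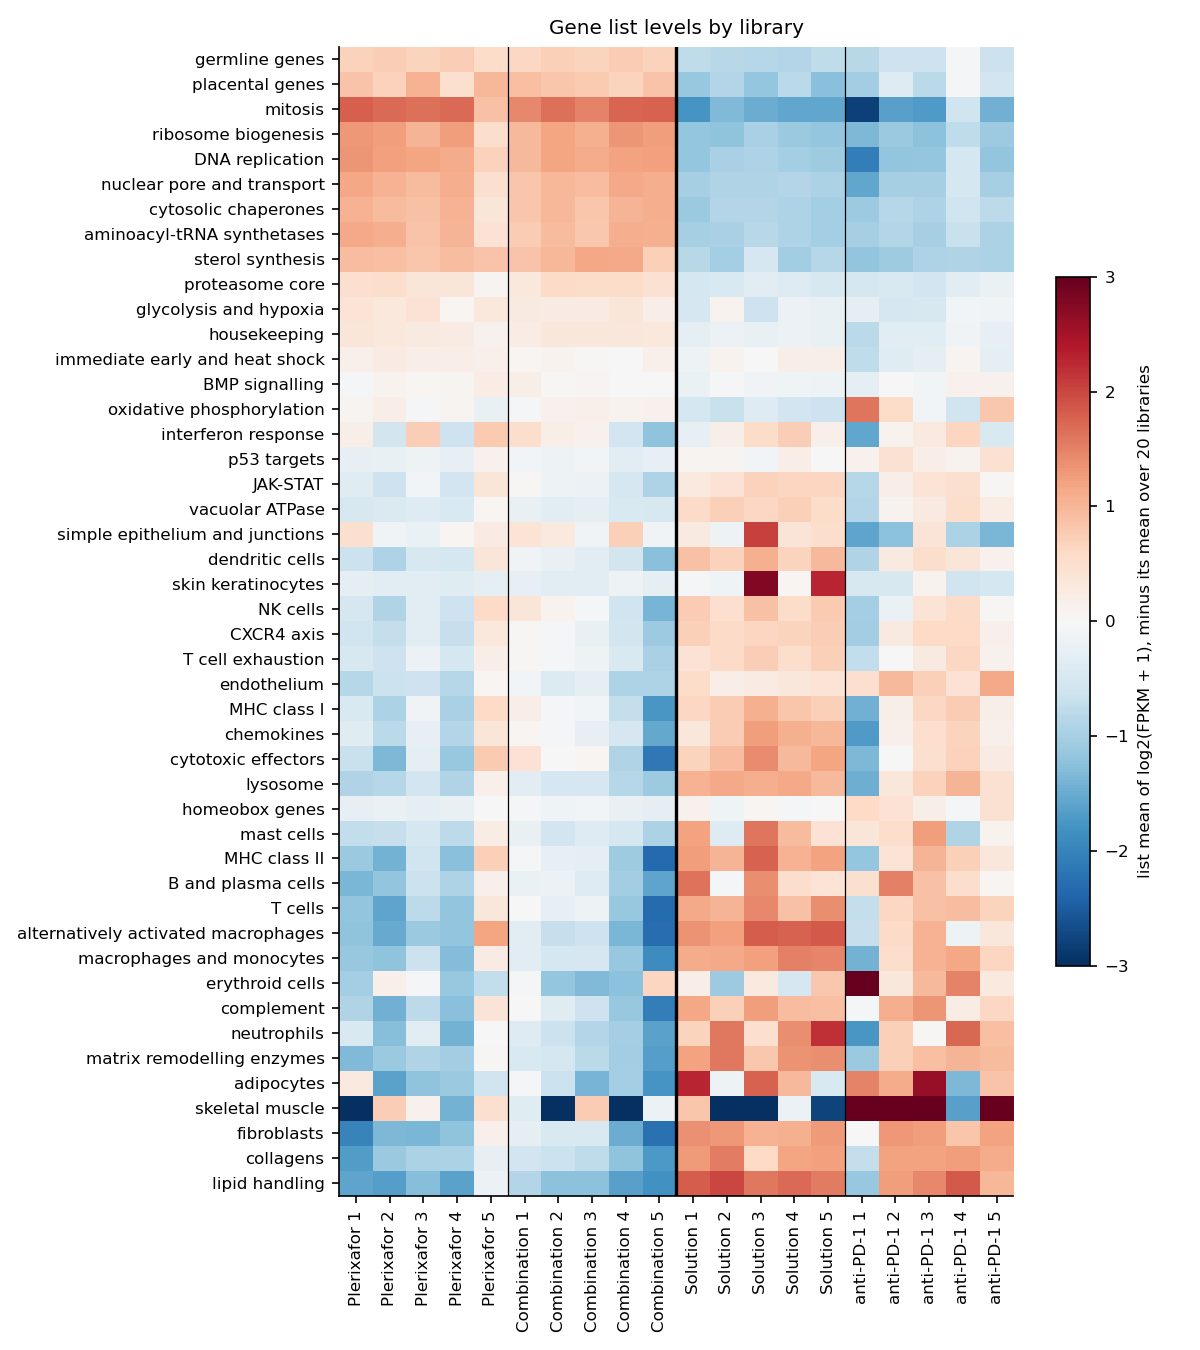
Mean of log2(FPKM + 1) over all members of each gene list with deposited values, tested or not, minus that list's mean over the 20 libraries. Each column is 1 library, and colours are cut off at 3 and -3. Proliferation, protein synthesis and sterol lists lie above their means in every antagonist-treated library and below them elsewhere; Plerixafor 5 and anti-PD-1 1 depart from the rest of their arms in most immune and stromal lists.

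The genes of highest level among those already without overlap are a description, since their separation was fixed by that choice. Eef1a1, an elongation factor of translation, had 5193, 6370 and 6979 FPKM with the antagonist, against 967, 3105 and 3705 without it. Lgals1, the gene of galectin-1, had 1888, 3282 and 3655 FPKM in antagonist-treated tumours, against 209, 586 and 891 in antagonist-free tumours. Among ribosomal protein genes, Rpl8 rose by 2.40, Rps23 by 1.76 and Rplp1 by 0.67 on the log2 scale, whereas Rps2 and Rpl26 fell by 1.22 and 0.94. Rps2 had 232, 265 and 360 FPKM with the antagonist, against 575, 649 and 730 without it. These genes and Eef1a1 have processed pseudogenes that may share reads with them, so the split is uncertain. Housekeeping genes were not level either: 9 of 14 rose and 3 fell, beside 46.1% and 36.4% of all tested genes, with a median of 0.57. Without overlap 6 were higher, beside 32.9% of all tested genes, and 4 after median-of-ratios scaling, beside 3027 of 12687 genes. Tbp was at 1.49 ± 0.09 and Ywhaz at 1.72 ± 0.16.

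The 12 genes with the widest separation downward were picked for their gap in the same way. Lpl, the lipase that frees fatty acids from lipoproteins, had 15.8, 6.80, 11.2, 11.2 and 43.8 FPKM in Plerixafor tumours and 26.1, 13.7, 14.4, 8.92 and 5.83 in Combination tumours, against 323, 260, 264, 163 and 227 in Solution tumours and 301, 261, 269, 165 and 187 in anti-PD-1 tumours. Plerixafor 5 was the highest antagonist-treated library and still lay well below the lowest antagonist-free one. The mean in antagonist-free tumours was 15.3 times as high, and the log2 fold change was -4.05 ± 0.28. Cd36, a fatty acid receptor, had 5.27, 10.4 and 21.3 FPKM with the antagonist, against 72.5, 144 and 195 without it.

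Slc40a1, which encodes the iron exporter ferroportin, had 0.571, 0.96 and 2.29 FPKM in antagonist-treated tumours, against 8.75, 14.9 and 26.9 in antagonist-free tumours. Cdkn1c, an imprinted inhibitor of cyclin-dependent kinases, had 0.276, 0.965 and 5.46 FPKM in antagonist-treated tumours, against 20.3, 31.4 and 37.4 in antagonist-free tumours. Gas1, a membrane protein gene first known from growth-arrested cells, had 0.665, 2.26 and 10.7 FPKM with the antagonist, against 29.1, 42 and 74.2 without it. In all 3 genes Plerixafor 5 held the highest value of the antagonist-treated arm. Cat, the gene of catalase, and Glul, of glutamine synthetase, had log2 fold changes of -2.60 ± 0.19 and -2.54 ± 0.20. The remaining genes of the 12 widest gaps, Nrep, Laptm4b, Syngr1, Eepd1 and Dhrs4, ran between -1.92 for Eepd1 and -3.86 for Nrep.

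Stromal genes were lower, and part of them without overlap. Of 19 fibroblast genes 18 fell and 7 were without overlap, of 18 collagen genes 16 fell and 7 were without overlap, and of 20 genes for matrix enzymes and related factors 18 fell and 1 was without overlap (9.94% of all genes were lower without overlap). Medians were -2.30, -2.44 and -2.0, and of all tested genes 36.4% fell. Dcn, the gene of the matrix proteoglycan decorin, had 16.7, 44.9 and 257 FPKM with the antagonist, against 403, 860 and 1032 without it. Dpt, the gene of dermatopontin, had 6.76, 23.7 and 170 FPKM with the antagonist, against 222, 417 and 586 without it. Plerixafor 5 was again the top of the antagonist-treated arm for both.

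Pdgfra, the receptor that marks many fibroblasts, had 1.6, 3.08 and 8.22 FPKM in antagonist-treated tumours, against 15.5, 24.8 and 29.6 in antagonist-free tumours. Col6a1, a chain of the filament-forming collagen VI, had 13, 34.4 and 109 FPKM in antagonist-treated tumours, against 111, 361 and 507 in antagonist-free tumours, so that its arms nearly met. The basement membrane chains Col4a1 and Col4a2 had smaller log2 fold changes, -1.21 ± 0.13 and -1.19 ± 0.14, and no overlap. Without Plerixafor 5 and anti-PD-1 1, left out after seeing the data, 14 fibroblast, 15 collagen and 15 matrix enzyme genes were lower without overlap. Over all genes tested in that setting, 3263 of 12606 were lower without overlap. Median-of-ratios scaling gave 10, 12 and 9, beside 2286 of 12687 genes. Twist1, a mesenchymal transcription factor on the fibroblast list, had 61.7, 89.7 and 104 FPKM with the antagonist, against 5, 13.4 and 17.6 without it, and was higher without overlap.

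Endothelial genes fell in 13 of 14 tested members, 7 without overlap, beside 36.4% and 9.94% of all tested genes, with a median of -1.11. Pecam1, the vessel adhesion molecule CD31, had 12.7, 19.7 and 34.6 FPKM with the antagonist, against 42.8, 50 and 82 without it. Tek, the angiopoietin receptor, had 0.825, 1.56 and 4.22 FPKM with the antagonist, against 5.06, 8.85 and 13.4 without it. Flt1, a VEGF receptor gene, had a log2 fold change of 0.08 and was not called, and Vegfa itself rose without overlap at 1.31. Of 9 adipocyte genes 8 fell and 2 were without overlap, namely the fatty acid carrier Fabp4 (-2.87 ± 0.28) and the fat cell regulator Pparg (-1.87 ± 0.17). Of 13 lipid handling genes 11 fell (median -3.28). Lpl and Cd36 were without overlap over all libraries. With Plerixafor 5 and anti-PD-1 1 left out, again after seeing the data, 10 members were lower without overlap, beside 3263 of 12606 genes.

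Immune genes were lower in the model but not by the separation of the arms. All 16 tested T cell genes fell (median -1.67), all 18 macrophage and monocyte genes fell (median -1.75), all 11 MHC class II genes fell (median -1.62), and all 7 B and plasma cell genes fell (median -1.65), yet none of these genes was without overlap. Over all tested genes 36.4% fell and 9.94% were lower without overlap. On the recovered reads, limma-voom gave a median of -2.72 for the B and plasma cell genes. T cell genes summed to 10.1, 56 and 174 FPKM in antagonist-treated tumours, against 70.5, 257 and 420 in antagonist-free tumours. The top of the first range was Plerixafor 5, with the next library at 129.5 FPKM, and the bottom of the second was anti-PD-1 1, with the next library at 208.5 FPKM. Without both libraries, all 16 T cell genes, 13 of 18 macrophage genes, 9 of 11 MHC class II genes, 15 of 20 lysosome genes and 2 of the 5 B and plasma cell genes that then passed the filter were lower without overlap, beside 3263 of 12606 genes. Other lists separated less: 2 of 11 alternatively activated macrophage genes, 2 of 8 mast cell genes, 3 of 9 NK cell genes, 5 of 13 cytotoxic genes, 5 of 11 neutrophil genes and 5 of 11 dendritic cell genes. Leaving out anti-PD-1 1 alone gave 13 T cell genes, beside 2538 of 12623 genes. Leaving out Plerixafor 5 alone gave 0, beside 1787 of 12669 genes. Both were edge libraries left out after the data were seen. For genes still tested the counts could only rise, so they are a description.

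Cd28, the costimulatory receptor of T cells, had 0.223, 1.03 and 3.47 FPKM with the antagonist, against 1.75, 6.3 and 9.05 without it, with a log2 fold change of -1.63 ± 0.24 and an adjusted p of 4.4e-06 (limma). Ctsk, a lysosomal protease gene, had 4.82, 10.5 and 50.4 FPKM with the antagonist, against 40.2, 198 and 261 without it. In both genes Plerixafor 5 was the top of its arm and anti-PD-1 1 the bottom of the other, and there the arms met. Ciita, the master regulator of MHC class II, had 0.841, 3.71 and 11.4 FPKM with the antagonist, against 3.28, 15.5 and 22.1 without it.

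Other leukocyte lists, and the lists after them, are read beside the same shares of all tested genes. Of these 36.4% fell, 46.1% rose and 9.94% were lower without overlap. Calls were lower for 9 of 13 cytotoxic genes, 7 of 9 NK cell genes, 8 of 11 neutrophil genes, 10 of 11 dendritic cell genes, 10 of 11 alternatively activated macrophage genes and 7 of 8 mast cell genes, with no member lower without overlap. Lysosome genes fell in 17 of 20 and vacuolar ATPase genes in 10 of 16, with 3 vacuolar ATPase subunits without overlap. Atp6v1d had 20.1, 23.1 and 31.7 FPKM in antagonist-treated tumours, against 45.1, 50.3 and 56.1 in antagonist-free tumours. Complement genes fell in 12 of 14, with Cd55 and Cd59a, which protect cells from complement, without overlap. MHC class I genes fell in 9 of 15 and rose in 2. H2-D1 and H2-K1, class I heavy chains that may share reads, had -2.06 and -1.78.

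**Figure D4:**
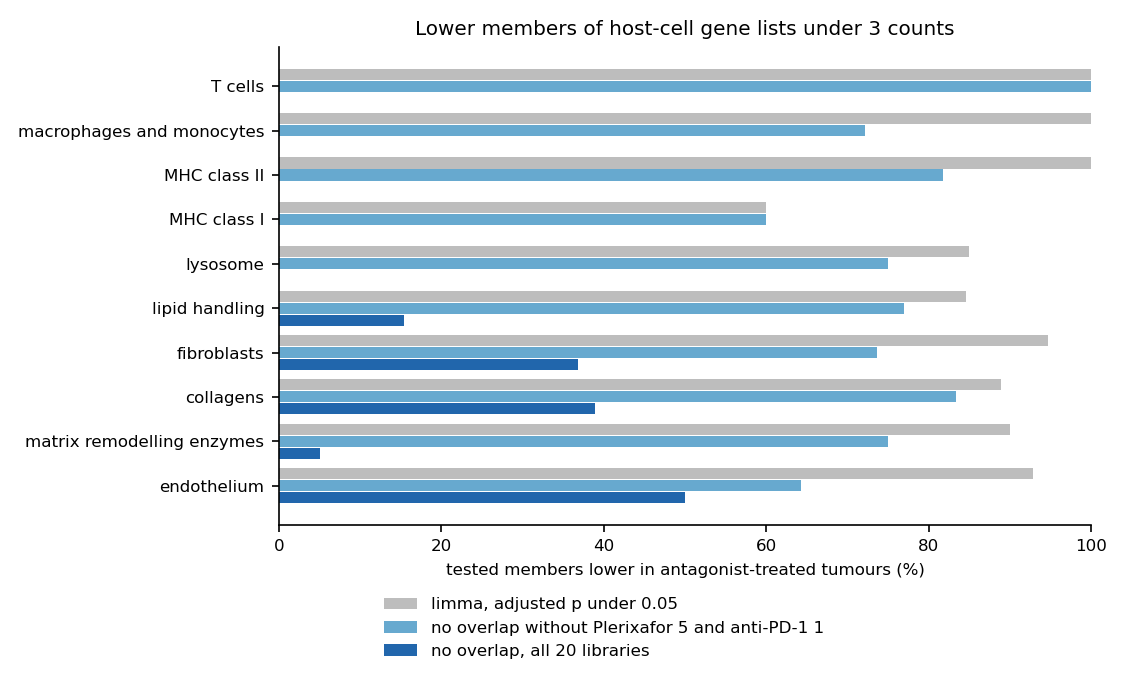
Share of the tested members of 10 gene lists that were lower in antagonist-treated tumours, by the model (grey), by separation of the arms without Plerixafor 5 and anti-PD-1 1 (light blue) and by separation over all 20 libraries (dark blue); a missing bar is 0. All 16 T cell genes are lower without overlap once those libraries are left out, against 0 of 16 with them. Over all tested genes the counts are 3263 of 12606 and 1261 of 12687. Those libraries were left out after seeing the data, and for genes still tested leaving out libraries can only add separation.

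The axis that the antagonist blocks was lower too. Cxcr4 had 4.92, 4.98, 8.13, 5.42 and 15.5 FPKM in Plerixafor tumours and 10.7, 10.5, 8.74, 5.002 and 3.97 in Combination tumours, against 50.4, 51.0, 23.9, 50.8 and 50.8 in Solution tumours and 6.25, 29.8, 39.7, 59.6 and 40.4 in anti-PD-1 tumours. The value in anti-PD-1 1 lay inside the antagonist-treated range, and all other antagonist-free values lay above it. The log2 fold change was -2.15 ± 0.32, with an adjusted p of 5.55e-06 (limma). Cxcl12, its ligand, had 4.24, 11.8 and 49.5 FPKM in antagonist-treated tumours, against 25.7, 63.7 and 129 in antagonist-free tumours, with overlap and a log2 fold change of -2.04 ± 0.36. Ackr3, the scavenger receptor of the same ligand, had 25.1, 29 and 32.8 FPKM with the antagonist, against 15.9, 27.7 and 40.6 without it, with a log2 fold change of 0.07 ± 0.15 that was not called and was -0.06 after median-of-ratios scaling. Mif, a cytokine that also binds CXCR4, rose without overlap and had 590, 754 and 883 FPKM with the antagonist, against 89.0, 240 and 384 without it.

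Of the checkpoint and exhaustion genes, 12 of 16 fell, 3 rose and none was lower without overlap, beside 36.4%, 46.1% and 9.94% of all tested genes. Pdcd1, the gene of PD-1, had 0.608, 2.78 and 5.52 FPKM with the antagonist, against 1.41, 10.9 and 17 without it, with a log2 fold change of -1.47 ± 0.31. Tox had 0.0992, 0.317 and 0.576 FPKM in antagonist-treated tumours, against 0.435, 1.72 and 4.91 in antagonist-free tumours, so that only the lowest antagonist-free library, anti-PD-1 1, reached into the other arm. Its log2 fold change was -1.05 ± 0.13, with an adjusted p of 6.3e-07 (limma), on a scale that understates changes of low genes. Every antagonist-treated value was below 1 FPKM, so Tox passed the filter on low values only through the antagonist-free arm. The filter thus fixed its direction, and its p-value is a description. Cd274, the gene of PD-L1, had 2.14, 12.2 and 35.7 FPKM with the antagonist, against 3.42, 41.6 and 70.9 without it.

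Some members went against their lists. Eomes, a T-box factor of effector and exhausted T cells, had 18.8, 37.3 and 43.3 FPKM in antagonist-treated tumours, against 0.747, 3.17 and 7.85 in antagonist-free tumours, with a log2 fold change of 3.23 ± 0.21 and an adjusted p of 5.56e-11 (limma). Tigit, an inhibitory receptor of T and NK cells, had 14.1, 18.2 and 27.8 FPKM with the antagonist, against 1.13, 6.45 and 10.1 without it. Both rose without overlap in the same libraries in which all 16 T cell genes fell. Klra4, an NK cell receptor gene with close paralogs that may share reads, had 5.94, 12.7 and 16.6 FPKM in antagonist-treated tumours, against 0.145, 0.665 and 1.72 in antagonist-free tumours. Klra4 passed the filter on low values only through the antagonist-treated arm, so the filter fixed its direction. Gata2 of the mast cell list and Cx3cl1, the gene of the chemokine fractalkine, also rose without overlap, at 2.26 ± 0.14 and 2.98 ± 0.20.

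JAK-STAT genes fell in 11 of 24 tested members and rose in 2, beside 36.4% and 46.1% of all tested genes. Jak2 had 6.78, 8.55 and 12 FPKM with the antagonist, against 5.31, 11.6 and 16.7 without it, a log2 fold change of -0.27 ± 0.13 with an adjusted p of 0.0515 (limma), which passed the threshold after median-of-ratios scaling at -0.40. Stat3 had 39.8, 48.8 and 64.7 FPKM with the antagonist, against 23.9, 59.1 and 65.6 without it, with -0.10 ± 0.13 and an adjusted p of 0.479, and it too was called after that scaling, at -0.25. For both genes anti-PD-1 1 was the lowest antagonist-free library and without it both were called, at -0.35 and -0.22. Jak2 was also called, at between -0.29 and -0.32, without any of Plerixafor 3, Plerixafor 5, Solution 1, Combination 1 or Combination 3. Stat5b and Il6st, the shared receptor chain of the IL-6 family, fell without overlap, at -2.17 ± 0.21 and -1.21 ± 0.15. Lif, a ligand that signals through that chain, rose without overlap and had 2.3, 3.21 and 4.14 FPKM with the antagonist, against 0.121, 0.53 and 1.02 without it. Without Plerixafor 5 and anti-PD-1 1, left out after seeing the data, 12 JAK-STAT genes were lower without overlap, beside 3263 of 12606 genes. After median-of-ratios scaling 6 were, beside 2286 of 12687 genes. Of 22 interferon response genes 2 rose and 3 fell, with a median of -0.05.

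The labelled cell type was checked against epithelial markers. Krt8, a keratin of simple epithelia, had 292, 355 and 487 FPKM in antagonist-treated tumours, against 2.27, 32 and 189 in antagonist-free tumours, and Krt18, its partner, had 410, 486 and 641, against 3.84, 33.1 and 193. Both were without overlap, and Solution 3 was the highest antagonist-free library. Epcam, an epithelial adhesion molecule gene, fell and had 0.0777, 1.51 and 5.18 FPKM with the antagonist, against 0.351, 9.09 and 56.7 without it, with a log2 fold change of -1.54 and an adjusted p of 0.00563 (limma). The squamous markers Krt5 and Trp63 were at or near 0 in antagonist-treated tumours, with at most 4.08 and 0.263 FPKM, against at most 78.6 and 3.79. Krt14, the squamous partner of Krt5, went the other way and had 10, 13.1 and 26 FPKM with the antagonist, against 0.105, 4.16 and 57.6 without it, with a log2 fold change of 1.68 and an adjusted p of 0.00159 (limma). Krt7, Krt19 and Cdh1, also epithelial markers, had lower medians with the antagonist, at 1.43, 8.45 and 2.47 FPKM against 9.2, 50.5 and 6.52. Their arms overlapped. For Epcam, Krt5, Krt14, Krt7, Krt19 and Cdh1 too, Solution 3 held the highest antagonist-free value. Cldn6, a tight junction gene of early epithelia, had 22.3, 40.6 and 59.5 FPKM in antagonist-treated tumours, against 0.0396, 0.247 and 3.21 in antagonist-free tumours. Over the 17 tested genes of the simple epithelium list 6 rose, 9 fell and 4 were higher without overlap, beside 46.1%, 36.4% and 32.9% of all tested genes. Their median log2 fold change was -1.59 for Plerixafor minus Solution and 0.21 for Combination minus anti-PD-1. The strata thus had opposite signs, with no member called for the interaction.

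Skeletal muscle and erythroid genes show where the antagonist-free arm was uneven. Of 15 muscle genes 5 were called lower and none was without overlap, beside 36.4% of all tested genes called lower and 9.94% lower without overlap. Their median log2 fold change was -5.39 for Combination minus anti-PD-1 and 1.38 for Plerixafor minus Solution, so the strata had opposite signs, and no member was called for the interaction. Casq1, the calcium store protein of muscle, had 0.259, 5.23 and 15.6 FPKM with the antagonist, against 0.116, 14.5 and 1176 without it, the last in anti-PD-1 1. The call for Casq1 was lost without that library, and also without any of Plerixafor 1, Solution 1, Solution 4 or Combination 4. All 5 erythroid genes fell, and anti-PD-1 1 held their highest sum, 2277 FPKM. The alpha globin genes Hba-a1 and Hba-a2 are near-identical and may share reads.

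Stress and damage genes moved in both directions. Of 14 p53 target genes 5 rose and 6 fell, near the 46.1% and 36.4% of all tested genes. Ccng1 had 19.4, 23.2 and 36.4 FPKM with the antagonist, against 40.9, 52.7 and 317 without it. Ccng1 thus fell without overlap, and its value of 317 was again in anti-PD-1 1. The paralogs Sesn2 and Sesn1, which restrain growth signalling, moved in opposite directions without overlap, at 1.70 ± 0.18 and -1.22 ± 0.10. Among immediate early and heat shock genes 7 rose and 6 fell. Jun, an AP-1 subunit gene, had 20.6, 24.6 and 34.4 FPKM with the antagonist, against 55.8, 67.4 and 77.1 without it. Dnajb1, which encodes a cofactor of HSP70, had 40.7, 53.7 and 64.7 FPKM in antagonist-treated tumours, against 7.71, 18.4 and 23.6 in antagonist-free tumours.

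The antibody, as the second factor, gave no call. limma called 0 of 12687 genes for the antibody at an adjusted p under 0.05 (0%), with 2183 genes at an unadjusted p under 0.05 (17.2%) and a smallest adjusted p of 0.201. limma-voom on the recovered reads called 1. The median absolute log2 fold change was 0.13 for the antibody and 0.78 for the antagonist, both with a median standard error of 0.11. Anti-PD-1 4 bore on this count: without it 1076 genes were called, leaving out anti-PD-1 3 gave 2, and a fit that weights libraries by their spread called 2662. Igf2, a fetal growth factor gene, had 23.5, 42.1, 8.79, 7.99 and 25.3 FPKM in anti-PD-1 tumours, against 2.81, 1.81, 0.94, 6.31 and 1.09 in Solution tumours, while Combination and Plerixafor tumours averaged 17.5 ± 4.26 and 18.5 ± 3.69 (SD, n = 5 each). Its antibody log2 fold change was 1.25 ± 0.28 with an adjusted p of 0.201 (limma). Itga7, a muscle integrin gene, ranged between 3.97 and 11.9 FPKM in anti-PD-1 tumours, against 1.37 to 3.14 in Solution tumours. For both genes the libraries anti-PD-1 1, 2 and 5, which had the highest muscle shares, held the 3 highest values of their group, and the part of muscle in this was not tested.

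The difference made by the antagonist was also compared between tumours with and without the antibody. The interaction gave 0 calls (0%), with 1957 genes at an unadjusted p under 0.05 (15.4%) and a smallest adjusted p of 0.199, while limma-voom called 1. Leaving out anti-PD-1 4 gave 1003 interaction calls, leaving out anti-PD-1 3 gave 2, and library weights gave 4071. Its median standard error, 0.22, was larger than that of the main contrasts, so small differences between the strata were not detectable. Cdh1, the gene of E-cadherin, was among the 3 genes with the smallest p for a positive interaction, and the integrin ligand gene Npnt among those for a negative one.

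Set side by side, the strata share no library. Combination minus anti-PD-1 gave 5547 higher and 3915 lower calls (43.7% and 30.9%), and Plerixafor minus Solution gave 5370 higher and 4207 lower (42.3% and 33.2%). Both called 4843 genes higher and 3235 lower, which is 85.37% of the calls with the antibody and 84.35% of those without it, and 8 genes were called in opposite directions. Across genes, which are not independent replicates, Pearson's r of the fold changes was 0.842 as a description. Among the 10 antibody-treated libraries alone, 4805 genes lay higher and 2003 lower in Combination than in anti-PD-1 tumours with no overlap (37.9% and 15.8%). Among the 10 antibody-free libraries, 5264 lay higher and 3687 lower in Plerixafor than in Solution tumours with no overlap (41.5% and 29.1%). In both strata at once 4367 were higher and 1686 lower, and none was separated in opposite directions. A gene without overlap in the pooled arms is without overlap in each stratum too. The pooled rule thus fixed 4169 of the higher and 1261 of the lower genes, and their share in both strata tests nothing.

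**Figure D5:**
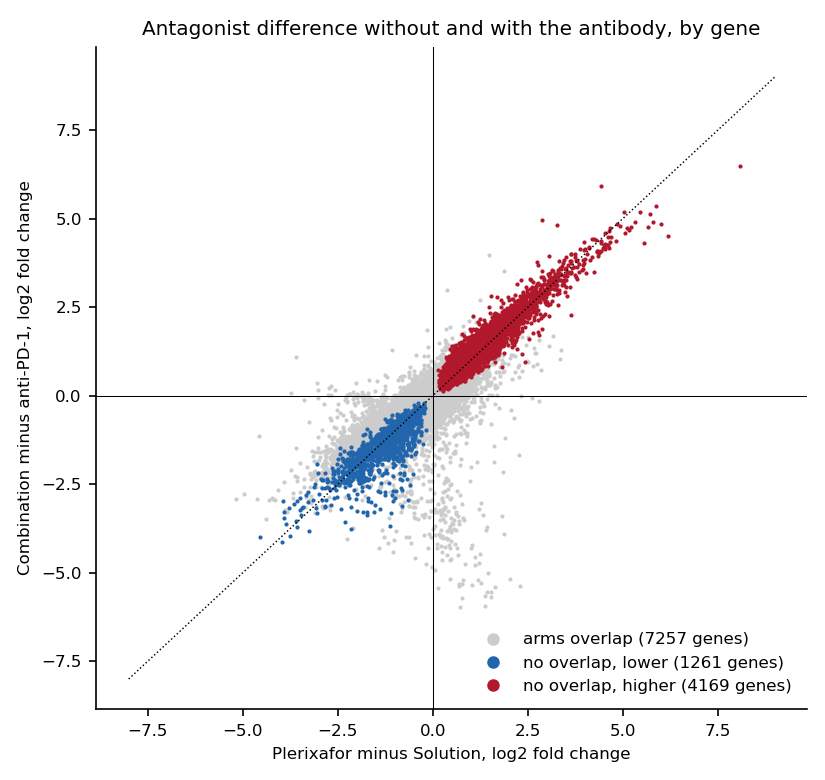
Log2 fold change of each of 12687 genes for Combination minus anti-PD-1 (vertical axis) against Plerixafor minus Solution (horizontal axis); the dotted line marks equal values. The 4169 genes higher (red) and 1261 genes lower (blue) without overlap in the pooled arms lie in the upper right and lower left, and grey points are genes whose arms overlap. The place of the red and blue points was fixed by the rule, since pooled separation holds within each stratum.

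At the border of the rule, arms touched. Just inside on the higher side, Porcn had 4.51 FPKM as the lowest antagonist-treated value and 4.51 as the highest antagonist-free value, before rounding in that order, with Mau2 at 10.9 and 10.9 and Arih1 at 9.37 and 9.37. Just outside lay Mrpl52 at 84.3 and 84.3, Itch at 20.2 and 20.2 and Snrnp27 at 42.2 and 42.2, in the reverse order before rounding. On the lower side Lage3, with both edges at 20.3 FPKM, and Cyb5d1, with both at 9.59, were inside. Tnfrsf21 was inside as well, with 7.10 FPKM as the highest antagonist-treated value and 7.11 as the lowest antagonist-free value. Meox2, Oaz2 and Hadha were just outside, with both edges at 4.75, 36.5 and 43 FPKM.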

How the data were processed

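Per the labels' protocols, total RNA from tumours went into 20 stranded mRNA libraries, which were read on a NovaSeq instrument. The authors deposited 1 table of FPKM values, 18722 genes by symbol in 20 columns, which were matched to samples by their labels. HISAT2 2.1.0, HTSeq 0.11.2, StringTie 2.1.4, DESeq2 1.28.1 and GRCm39 are named in the submitters' processing notes without a role, and no source used here says whether reads were counted by strand. Antisense partners, overlapping genes and near-identical copies can therefore share reads.

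From the deposited FPKM, the lowest and highest values of each arm were compared for every gene. Genes with at least 1 FPKM in at least 5 libraries, 12687 of 18722, were tested on log2(FPKM + 1) with limma 3.58.1 in R 4.3.3. A model of 4 group means with a trended moderated variance and 16 residual degrees of freedom gave contrasts for the antagonist, the antibody, their interaction and each stratum. Tests were two-sided, and p-values were adjusted by Benjamini and Hochberg over all tested genes, with a threshold of 0.05. Fold changes are on the log2(FPKM + 1) scale and understate the change of low genes. Of the genes below the filter, 246 were higher and 302 lower without overlap. Some genes passed the filter only through the arm where they are high, so the filter fixed their direction. On the higher side these include Sox2, Dlk2, Cox7b2, Cyp2c55, Ifi202b, Dcaf8l, Tex11, Phlda2, Prl2c5, Mcm10, Cdc6, Cldn6, Pitx1, Klra4 and Lif. On the lower side they include Tox, Syngr1, Eepd1, Pparg, Msx1, Cd55 and Cd59a.

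Dividing each gene's FPKM by the worth of 1 read gave whole reads for 18722 of 18722 genes, with a tolerance of 0.02 reads. limma-voom on these reads, an alternative, called 10286 genes for the antagonist, against 10472 on FPKM. Other alternatives were another pseudocount, other filters, TPM, median-of-ratios and quantile scaling, other models, library weights, a replicate block and leaving out libraries. No copies were found among 190 pairs of libraries. The calculations were tested on simulated data.

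The comparison and the gene lists were chosen with earlier results of these data known. Named genes were the CXCR4, PD-1, TOX and JAK-STAT genes in question, the 12 widest gaps and 5 highest levels per direction among genes of at least 2 FPKM, up to 3 members of each list, the antibody and interaction genes with the smallest p, and the genes next to the border of the rule. Other list members are named as examples chosen after their values were seen. Some of the genes so chosen are not reported here.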

Additional observations from a re-analysis of the deposited data

Results flagged for a closer look

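Among 628 sets of 5 libraries, 1 for each of 157 named genes in each labelled group, 66 held a library whose gap to the nearest other was wide for the range of the set by Dixon's criterion. Chance gives about 1 in 20 sets. All values here are log2(FPKM + 1). Plerixafor 5 was that library in 29 sets. It was the highest Plerixafor library for stromal, immune and other genes, with Cxcl12 at 5.66, Nrep at 3.14, Gas1 at 3.54, Dcn at 8.01, Rps2 at 8.49, Dpt at 7.42, Tnfrsf21 at 3.02, Meox2 at 2.52, Cd22 at 2.97, Mrc1 at 6.07, Lamp1 at 8.67, Atp6v1d at 5.03, Cd59a at 0.95, Pdgfra at 3.21, Trp63 at 0.34, Msx1 at 1.281 and Sesn1 at 3.63. It was the lowest for cell cycle, chaperone and other genes, with Cox7b2 at 4.62, Gata2 at 3.83, Rrm2 at 6.69, Mcm10 at 3.99, Tpx2 at 5.49, Cdc20 at 5.60, Nop56 at 5.58, Cars at 5.21, Hsp90ab1 at 10.72, Hsp90aa1 at 8.22, Atp5c1 at 7.11 and Ywhaz at 7.34. In each case it lay on the side of the antagonist-free tumours.

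Anti-PD-1 4 was that library in 11 sets. It was the highest of its group, toward the antagonist-treated tumours, for Bmp4 at 3.43, Cyp2c55 at 1.44, Dcaf8l at 2.59, Sox2 at 2.02, Cox7b2 at 1.85, Ifi202b at 1.47, Cldn6 at 2.07, Tex11 at 2.02, Phlda2 at 1.54 and Prl2c5 at 2.29. It was the lowest for Tek at 2.62. Anti-PD-1 1 was the lowest of its group for Cx3cl1 at 2.21 and Col5a3 at 4.61, and anti-PD-1 3 the highest for Cdcp3 at 1.18.

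Solution 3 stood apart in 9 sets, as the highest for Sqle at 2.67, Dlk2 at 0.37, Cx3cl1 at 4.26, Krt18 at 7.60 and Prrg2 at 3.74 and as the lowest for Cxcr4 at 4.64, Cd28 at 2.58, Col5a3 at 5.58 and Jun at 5.97. Solution 1 was the highest for Eepd1 at 2.14 and the lowest for Stat3 at 5.76. Solution 2 was the highest for Sox2 at 0.96. Solution 4 was the highest for Rsad2 at 3.98 and the lowest for Ctsk at 7.63. Solution 5 was the lowest for Lage3 at 4.47. Combination 1 was the highest for Cdcp3 at 0.41 and the lowest for Atp5c1 at 7.43 and Atp5b at 9.19. Combination 2 was the lowest for Npl at 2.17. Combination 4 was the highest for Sox2 at 5.53. Combination 5 was the highest for Bmp4 at 7.28 and the lowest for Ear2 at 0.46 and Cdh1 at 0.53.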

How the results depend on the processing

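The antagonist calls (10472) ran from 7778 to 13235 over the alternatives, the lowest with a filter at 5 FPKM and the highest with every gene tested. They ran between 10262 and 10991 when 1 library was left out. Calls within the strata ran between 8952 and 10139 for Combination minus anti-PD-1, and between 9124 and 10348 for Plerixafor minus Solution, on leaving out 1 library. Genes higher without overlap (4169) then ran between 4171 and 4391. Genes lower without overlap (1261) ran between 1238 and 2538, and came to 734 with a filter at 5 FPKM, 2286 with median-of-ratios scaling, 1922 with quantile normalisation, 3065 without the anti-PD-1 libraries 1, 2 and 5, and 3263 without Plerixafor 5 and anti-PD-1 1, the last an alternative chosen after seeing the data. The antibody (0 calls) gave 2 with every gene tested, 2662 with library weights, 1 with limma-voom and between 0 and 1076 on leaving out 1 library. The interaction (0 calls) gave 4071, 1 with limma-voom, and between 0 and 1003.

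Ackr3, at 0.07 on the log2 scale, was -0.00013 with TPM, -0.064 with median-of-ratios scaling, -0.178 with quantile normalisation, -0.18 with library weights, and between -0.0077 (without anti-PD-1 4) and 0.15 on leaving out 1 library. For the antagonist contrast of named genes, 5105 values over all alternatives kept direction and side of the threshold, 28 gained a call and 21 lost it. Of list medians, 1467 values moved by less than the spread between replicates and 51 by more, among them B and plasma cells (-1.65) at -2.72 with limma-voom, housekeeping genes (0.57) at 0.33 with quantile normalisation, and germline (5.17) and placental genes (4.40) at -0.01 and 0.16 with every gene tested. The cause of these changes was not tested. Replicate numbers did not pair the libraries: deviations of same-numbered libraries correlated between -0.753 and 0.506, and 2 libraries correlated best with their own number. With replicate number as a block 10382 genes were called for the antagonist, and 0 for the antibody and the interaction. At this depth, genes below the filter rest on few reads and were not tested.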
